A study of Homo sapiens with 3 samples.

Results

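Nucleotide supply genes were examined in HepG2, an established cell line from a human hepatocellular carcinoma, after DNA damage by etoposide, a drug that traps topoisomerase II on cut DNA. The genes were RRM1, RRM2, RRM2B, TYMS, DUT, DCTD, TK1, TK2 and DCK. They encode the subunits of ribonucleotide reductase, enzymes that provide deoxyuridylate and turn it into thymidylate, and kinases that salvage deoxynucleosides. They were chosen by name, as every probe whose gene name on the array equals one of the 9 symbols, with control spots left out. All 9 genes were found, with 11 probes of 60 bases each, among 34127 probes under 27274 gene names. RRM2B and DUT had 2 probes and the others 1, and each of the 11 probes was spotted once per array.

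The study treated cells for 30 h with 10 μM etoposide, the dose it used to induce senescence, or 100 μM, the dose it used to induce apoptosis. These are called the low dose and the high dose. The control cells are named untreated in the deposited labels and DMSO in the study's own table of array results. All the cells carry wild-type p53, and there was 1 array per condition, so the fold values have no check by replicates, and no p-value is printed.

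Ribonucleotide reductase converts ribonucleoside diphosphates to deoxyribonucleoside diphosphates, and it does so with a large catalytic subunit, RRM1, paired with a small radical-carrying subunit, RRM2 or RRM2B. RRM2 is the small subunit of S phase, whereas RRM2B, also named p53R2, is a textbook target of p53 that supplies nucleotides for DNA repair and for mitochondrial DNA in resting cells. DCTD and DUT provide deoxyuridylate, TYMS methylates it to thymidylate, and the salvage kinases TK1 (cytosolic, high in S phase), TK2 (mitochondrial) and DCK phosphorylate deoxynucleosides taken up or released by cells.

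The sequences bearing on these genes are shown first. The pair of DUT probes is shown because both cross an exon junction and they overlap, so that they read partly the same stretch of the mRNA (NM_001025248). On hg18, 60 bases of the brighter probe cover 496 bases of chromosome 15 from 46421055 to 46421550 on the plus strand, and those of the dimmer probe cover 495 bases from 46421029 to 46421523. They overlap by 33 bases and differ there at 1 base, given as C23T when counted from the 5′ end of the brighter probe, and that base is in capitals. The array places their starts at bases 774 (brighter) and 748 (dimmer) of the mRNA. These starts do not match the overlap of the letters exactly. The probes were not aligned to the mRNA here, so a full match of both is not shown.

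DUT, brighter probe: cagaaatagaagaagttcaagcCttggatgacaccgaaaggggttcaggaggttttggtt

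DUT, dimmer probe: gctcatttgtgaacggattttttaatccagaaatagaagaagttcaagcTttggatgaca

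The 250 bases before the start site are shown for RRM1, RRM2, TK1 and DUT, the genes that were more than 2-fold lower at the high dose with signals well above background on every array. They come from RefSeq on GRCh38.p14 and read 5′ to 3′ on the strand of the gene. Capitals mark letters of 3 short motifs, searched on both strands. These were the E2F site (TTTCCCGC, TTTCGCGC, TTTGCCGC or TTTGGCGC), the CCAAT box (CCAAT) and the CHR (TTTGAA or TTCGAA), elements found in many genes of S phase and mitosis. Where a gene had several windows, the one holding the most of these letters is shown.

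RRM1, chr11:4094435-4094684, plus strand: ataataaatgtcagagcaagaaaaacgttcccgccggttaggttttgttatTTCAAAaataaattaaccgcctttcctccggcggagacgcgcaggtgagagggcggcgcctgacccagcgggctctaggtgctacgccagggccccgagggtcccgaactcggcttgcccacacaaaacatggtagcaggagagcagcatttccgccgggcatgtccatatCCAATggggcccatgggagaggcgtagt

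RRM2, chr2:10122489-10122738, plus strand: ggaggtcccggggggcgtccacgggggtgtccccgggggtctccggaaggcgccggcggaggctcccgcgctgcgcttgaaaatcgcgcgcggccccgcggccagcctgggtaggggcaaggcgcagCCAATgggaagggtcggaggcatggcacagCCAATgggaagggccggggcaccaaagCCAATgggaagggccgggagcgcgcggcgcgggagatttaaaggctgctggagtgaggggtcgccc

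TK1, chr17:78187053-78187302, minus strand: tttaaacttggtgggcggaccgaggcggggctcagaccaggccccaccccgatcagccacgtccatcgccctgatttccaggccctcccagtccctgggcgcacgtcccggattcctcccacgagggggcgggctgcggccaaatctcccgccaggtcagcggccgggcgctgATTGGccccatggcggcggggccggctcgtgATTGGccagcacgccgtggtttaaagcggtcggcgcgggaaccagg

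DUT, chr15:48331947-48332196, plus strand: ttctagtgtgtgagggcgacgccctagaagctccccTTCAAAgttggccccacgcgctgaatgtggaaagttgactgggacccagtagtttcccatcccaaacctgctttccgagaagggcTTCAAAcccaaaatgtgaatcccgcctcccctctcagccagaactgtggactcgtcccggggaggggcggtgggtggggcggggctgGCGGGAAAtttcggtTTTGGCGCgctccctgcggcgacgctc

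In RRM2 the CCAAT letters stood 123, 93 and 66 bases before the start, in TK1 77 and 46 bases before it, written there as the reverse complement ATTGG, and in RRM1 28 bases before it. The DUT window shown held E2F letters 42 and 27 bases before the start and CHR letters at 214 and 129 bases. The other windows of DUT and TK1 held none of the capitalized motifs, and the other RRM2 window held 1 CCAAT box. The RRM1 window held CHR letters at 199 bases. Of the 8 genes with a window in the RefSeq table, 3 held CCAAT letters in any of their windows (RRM1, RRM2 and TK1). E2F letters were held in any window by 2 of the 8 (TYMS and DUT). Of all 35116 windows of that length, counted singly, 32.0% held CCAAT letters and 2.79% held E2F letters. CHR letters were found in 2 of the 8 (RRM1 and DUT) and in 14.3% of all windows, and the GC box (GGGCGG), which is not capitalized, in 6 of the 8 and in 42.6%. DUT has 4 windows and RRM2, DCTD and TK1 have 2 each, so counts of genes and shares of windows are in unlike units. RRM2B has no window in the table. These are matches of letters in 1 window length, and no binding was measured.

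Signals are those the scanner software gave after subtracting background, before any scaling between arrays. The 3 arrays lay on 1 slide, no spot was saturated, and between 19836 and 20153 probes were well above background. For ratios, the 75th percentile of the array was subtracted from each log2 signal. This percentile stood at a signal of 514 on the control array, 536.4 on the low-dose array and 432.3 on the high-dose array. Errors are spot-to-spot SDs on the log2 scale, from repeated probes of like signal on the same arrays. They cover 1 array and not cultures or RNA preparations. A signal not well above background was raised to the lowest one that was, and the fold change is then a bound. Signals of different genes come from different probes and are not set against each other. Of the markers checked, all 8 liver genes (ALB, AFP, APOA1, APOB, TTR, TF, SERPINA1 and FGB) were well above background on every array, with summed signals of 235008, 256134 and 256545 in control, low-dose and high-dose cells. The fibroblast collagens COL1A1 and COL1A2 were on none. The 4 blood markers were above background on every array, PTPRC by 1 of its 5 probes, and summed to 1620, 2050 and 2841 in the same order. Of the 3 endothelial markers 2, 2 and 3 were above background, with sums of 530, 363 and 354, and of the 3 fibroblast markers 1, 1 and 0, with sums of 105, 77 and 34. The part of these markers in the results was not tested.

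At the low dose, RRM2 and RRM2B were upregulated more than 2-fold over control and none of the 9 genes was more than 2-fold lower. Thus 2 of 9 genes passed upwards, when 3.38% of the 16664 genes measured did and 1.61% passed downwards. At the high dose the picture differed. RRM1, RRM2, TK1, DUT and DCK were more than 2-fold lower than in control cells and none of the 9 was more than 2-fold higher, compared with 3.71% and 6.84% of 16779 genes. The median log2 ratio of the 9 genes was 0.72 at the low dose and -1.18 under the high dose, beside -0.037 and 0.096 for all genes. With normexp background correction the high-dose median was -0.66. Both comparisons share the control array. Directly between doses, 6 of 9 genes (RRM1, RRM2, TYMS, DUT, TK1 and DCK) passed 2-fold with the low dose higher, as did 3.66% of 16688 genes, and none passed with it lower, as did 3.97%. The median was 1.30 for the 9 genes and -0.11 for all genes. In bulk RNA, fewer cells that transcribe a gene and less of its RNA per cell cannot be told apart.

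**Figure D1:**
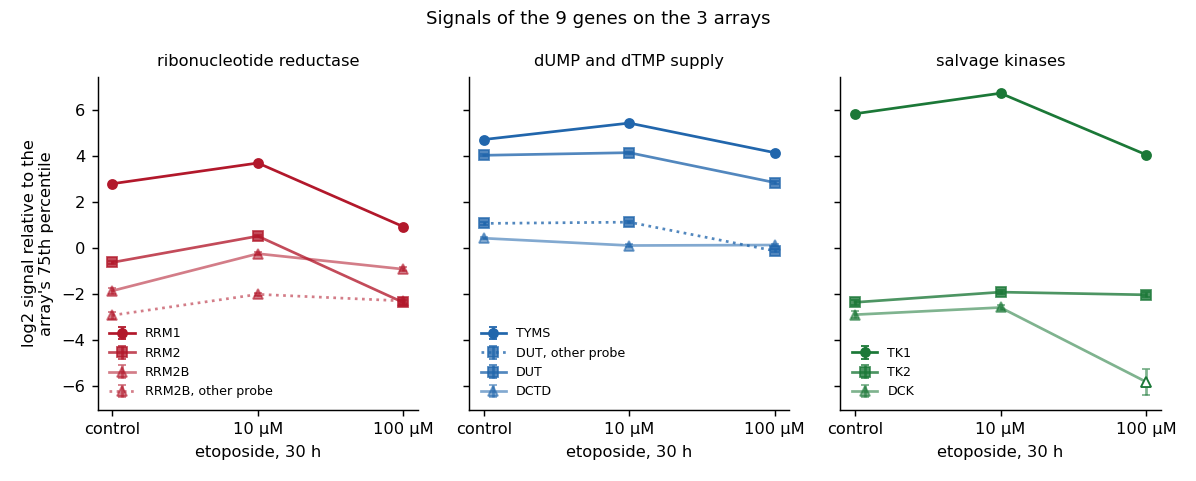
log2 signal of each of the 11 probes minus the 75th percentile of that array (vertical axis) in control cells and at 10 μM and 100 μM etoposide (horizontal axis), 1 array each, in 3 panels by role. Bars are spot-to-spot SDs, dotted lines are the dimmer probes of RRM2B and DUT, and the open symbol is the value of DCK that was not well above background. RRM1, RRM2, TYMS, TK1, DUT and DCK peak at 10 μM and lie below their control value at 100 μM, with DUT close to control at 10 μM. Heights of different lines are not comparable.

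Among the reductase subunits, the catalytic subunit RRM1 (NM_001033, probe on hg18 chromosome 11 from 4116523 to 4116582) had signals of 3550 in control, 6908 in low-dose and 818.5 in high-dose cells. The low-dose array was thus the highest and the high-dose array the lowest. After scaling, the low-dose level was 1.87-fold of control, just under the 2-fold threshold, with a log2 ratio of 0.90 ± 0.067. The high-dose level was 3.65-fold lower than control (-1.87 ± 0.079). Between doses RRM1 differed 6.80-fold, a log2 ratio of 2.77 that only 75 of all genes measured exceeded.

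RRM2 (NM_001034, chromosome 2 from 10187938 to 10187997), the small subunit of cycling cells, followed the same order. Its signals were 332.2 in control, 764.1 in low-dose and 83.52 in high-dose cells. It rose 2.21-fold over control at the low dose (log2 ratio 1.14 ± 0.079) and fell 3.35-fold below control at the high dose (-1.74 ± 0.13). The 7.37-fold difference between doses (log2 ratio 2.88 ± 0.12) was exceeded by 62 of all genes measured. With normexp background correction the low-dose log2 ratio was 0.98, which is under 2-fold, the high-dose ratio was -1.18, and the ratio between doses was 2.15.

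RRM2B (NM_015713), the p53-responsive small subunit, did not follow this order. Its brighter probe (chromosome 8 from 103286351 to 103286410, minus strand) had signals of 141.2 in control, 450.3 in low-dose and 227.6 in high-dose cells, so both treated arrays were above the control. RRM2B rose 3.06-fold at the low dose (1.61 ± 0.14) and was 1.92-fold of control at the high dose (0.94 ± 0.14), with a low-dose level 1.60-fold that of the high dose (0.67 ± 0.092). The dimmer probe, on the same chromosome from 103289090 to 103289149, gave signals of 67.56, 132.4 and 87.54 in the same order. Its fold values were smaller, at 1.88-fold for the low dose (0.91 ± 0.17) and 1.54-fold for the high dose (0.62 ± 0.19), and by this probe RRM2B would not pass 2-fold. The probes differed by 0.70 at the low dose, which was 3.21 times the spot-to-spot SD of that difference, and by 0.31 at the high dose, which was 1.30 times it.

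The small subunits were also compared within arrays, where scaling by 1 factor per array cancels. At the high dose the change of RRM2B relative to that of RRM2 was 6.41-fold (log2 difference 2.68 ± 0.20), and relative to that of RRM1 it was 6.99-fold (2.81 ± 0.17). The dimmer RRM2B probe, tried after the data were seen, gave 2.37 ± 0.23 and 2.49 ± 0.21. With normexp background correction the brighter probe gave 1.90 (3.72-fold) and 2.57. At the low dose the differences were 0.47 ± 0.16 and 0.71 ± 0.15 by the brighter probe but -0.23 ± 0.19 and 0.010 ± 0.18 by the dimmer one, so the low-dose difference between the small subunits changed sign with the probe. RRM1 minus RRM2 gave log2 differences of -0.24 ± 0.10 at the low dose and -0.12 ± 0.15 under the high dose. With normexp they were -0.14 and -0.67. Such a difference shows unequal change of 2 probes and not that either was constant.

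**Figure D2:**
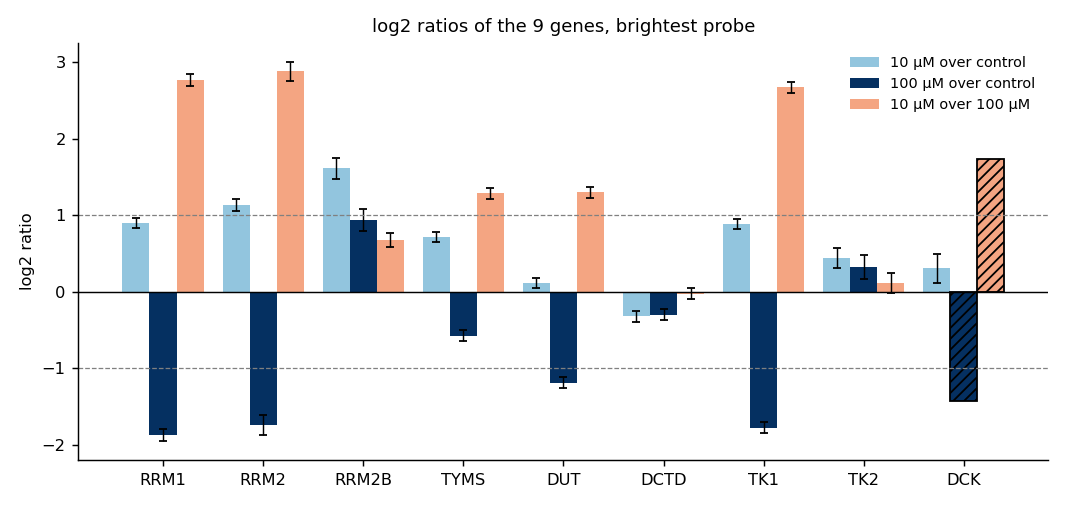
log2 ratios (vertical axis) of the brightest probe of each of the 9 genes (horizontal axis) for the low dose over control, the high dose over control and the low over the high dose. Bars run from 0, error bars are spot-to-spot SDs, dashed lines mark 2-fold, and hatched bars without error bars are the bounds of DCK. RRM2B and TK2 stand above 0 in each comparison. RRM1, RRM2, TK1, DUT and DCK stand above 0 at the low dose and below -1 under the high dose.

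TYMS (NM_001071, chromosome 18 from 663276 to 663335), the thymidylate synthase that fluoropyrimidine drugs inhibit, had signals of 13428 in control, 22996 in low-dose and 7605 in high-dose cells. The order of the arrays was the one seen for RRM1 and RRM2, but with a narrower spread. The low-dose level was 1.64-fold of control (0.72 ± 0.070) and the high-dose level 1.49-fold below it (-0.57 ± 0.074), and neither passed 2-fold. Between doses TYMS was 2.44-fold higher at the low dose (1.29 ± 0.069). The log2 ratio at the high dose lay 1.17 ± 0.15 above that of RRM2 (0.52 with normexp) and 1.21 ± 0.10 above that of TK1. ENOSF1, whose gene overlaps TYMS on the opposite strand, had signals of 709.8, 658.4 and 421.2, with log2 ratios of -0.17 at the low dose and -0.50 under the high dose. At the low dose, therefore, the TYMS probe was above control and the ENOSF1 probe slightly below it.

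DUT, the dUTPase that removes dUTP and yields the substrate of TYMS, had signals of 8352, 9438 and 3091 at the brighter of the probes printed above. Control and low-dose arrays were close and the high-dose array was lower. The level was 1.08-fold of control at the low dose (0.12 ± 0.070) and 2.27-fold lower than control at the high dose (-1.18 ± 0.071). The dimmer probe, with signals of 1074, 1164 and 395.1, gave log2 ratios of 0.055 ± 0.076 and -1.19 ± 0.087. The probes thus differed by 0.060 at the low dose and 0.0090 under the high dose, less than their spot-to-spot SD. Relative to RRM2, the low-dose change of DUT was lower by a log2 difference of -1.03 ± 0.11.

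DCTD (NM_001012732, chromosome 4 from 184049030 to 184049089, minus strand), the deoxycytidylate deaminase that feeds deoxyuridylate to TYMS, had signals of 687.8 in control, 576 in low-dose and 471.2 in high-dose cells. After scaling both doses were at nearly the same level, 0.80-fold and 0.81-fold of control (-0.32 ± 0.070 and -0.30 ± 0.076). DCTD was the only one of the 9 genes with a ratio below 1 at the low dose. Its low-over-high log2 ratio was -0.022 ± 0.074 and changed sign under other scalings, up to 0.29 without scaling.

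TK1 (NM_003258, chromosome 17 from 73681788 to 73681847, minus strand), the cytosolic thymidine kinase of S phase, had signals of 29170 in control, 56503 in low-dose and 7162 in high-dose cells. Its order was again low dose, control, high dose. The low-dose level was 1.86-fold of control (0.89 ± 0.065), just under the threshold, and the high-dose level was 3.43-fold lower than control (-1.78 ± 0.072). Between doses TK1 differed 6.36-fold (2.67 ± 0.066). TK1 and RRM2 differed in log2 ratio by -0.25 ± 0.10 at the low dose and -0.034 ± 0.15 under the high dose, and with normexp by -0.65 in the latter comparison.

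TK2 (NM_004614, chromosome 16 from 65100853 to 65100912, minus strand), the mitochondrial thymidine kinase, had signals of 99.75, 141.5 and 105.1. The arrays were close to each other, and TK2 passed 2-fold in no comparison, at 1.36-fold of control at the low dose (0.44 ± 0.13) and 1.25-fold at the high dose (0.33 ± 0.15). The thymidine kinases of cytosol and mitochondria separated between doses, where the change of TK1 exceeded that of TK2 5.86-fold (log2 difference 2.55 ± 0.15). Over control, TK1 minus TK2 was 0.45 ± 0.15 at the low dose and -2.10 ± 0.17 under the high dose.

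DCK (NM_000788, chromosome 4 from 72114797 to 72114856), the kinase of deoxycytidine and of the drugs cytarabine and gemcitabine, had signals of 68.83 in control, 89.1 in low-dose and 7.67 in high-dose cells. The last of these was not well above background, where the lowest such signal was 21.65. The low-dose level was 1.24-fold of control (0.31 ± 0.19), and the high-dose level was at least 2.67-fold lower than control and at least 3.32-fold lower than at the low dose. The DCK readings lay near background, and the high-dose log2 ratio ran from -2.92 to -0.19 over the alternatives tried, the latter with normexp, so the 2-fold call of DCK rests on how background is treated.

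**Figure D3:**
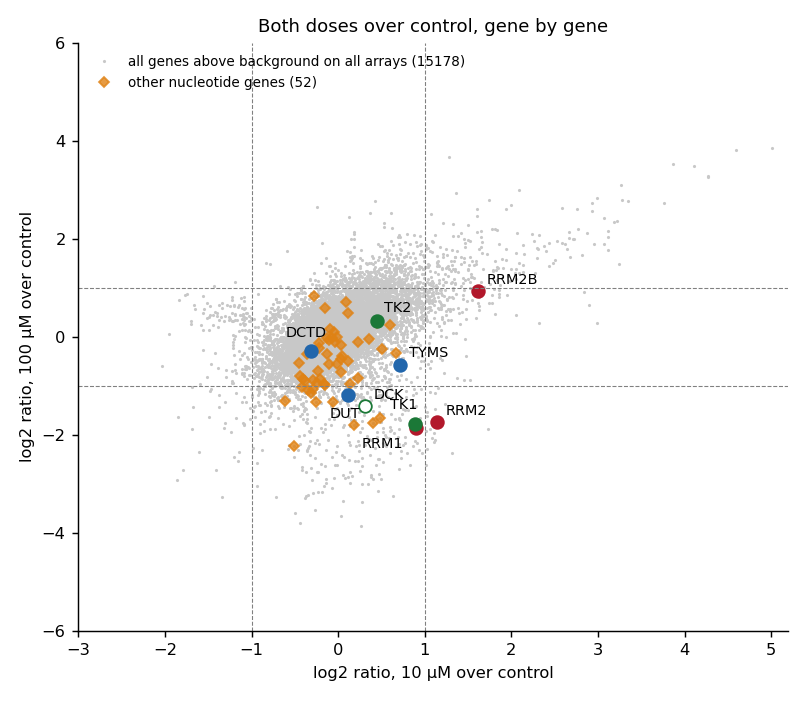
log2 ratio at 100 μM over control (vertical axis) against that at 10 μM over control (horizontal axis) for 15178 genes well above background on all arrays (grey), 52 other genes of nucleotide metabolism (diamonds) and the 9 genes (large circles, DCK open because its high-dose value is a bound). Both axes share the control array, and dashed lines mark 2-fold. RRM1, RRM2 and TK1 lie together at the lower right, above 0.8 at the low dose and below -1.7 under the high dose, and RRM2B lies at the upper right.

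The genes nearest to RRM2 and to RRM2B in this plot were listed among 12047 genes with a RefSeq mRNA accession. For RRM2, with its ratios of 1.14 and -1.74, they were BRCA1 (1.06 and -1.88), C11orf82 (1.02 and -1.63) and CHAF1A (0.96 and -1.75), the last a subunit of chromatin assembly factor 1. For RRM2B they were CAMTA1 (1.52 and 0.99), SULT1C4 (1.69 and 1.02) and KRT23 (1.62 and 0.82). Nearness here rests on 2 ratios that share 1 control array. The signals of CAMTA1 (31.59, 94.35 and 52.66) and SULT1C4 (24.73, 83.15 and 42.18) were close to background, whereas those of KRT23 (639.9, 2054 and 948.8) were not.

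The rest of nucleotide metabolism was read from a list of 53 genes, all on the array, of which 52 were measured. Each gene was counted by its brightest probe. SLC29A2, an equilibrative nucleoside transporter, was not well above background on any array. At the low dose none of the 52 passed 2-fold in either direction, with a median log2 ratio of -0.11 beside -0.037 for all genes. At the high dose 11 of 52 were more than 2-fold lower, beside 3.71% of all genes measured, and none was more than 2-fold higher, beside 6.84%. The median was -0.52 beside 0.096, and 8 of 52 had a log2 ratio above 0, beside 57.6% of all genes. The 11 became 21 without scaling, 22 with median scaling and 20 with spike-in scaling. Between doses 9 passed 2-fold with the low dose higher, beside 3.66% of all genes, and 1 passed with it lower, beside 3.97%, with a median of 0.46 beside -0.11. The 9 became 18 without scaling, 16 with median scaling and 12 with spike-in scaling. The median log2 ratio of all genes also shifted under these scalings. The shares of all genes past 2-fold were not counted under them.

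In the thymidylate cycle and its one-carbon supply, 6 of 7 genes fell more than 2-fold at the high dose, beside 3.71% of all genes measured, with a median log2 ratio of -1.33. DTYMK, the thymidylate kinase that acts after TYMS, had signals of 13896, 16484 and 3346 and fell 3.49-fold (-1.80 ± 0.072). The mitochondrial folate enzyme MTHFD2, spotted 10 times, had signals of 5937, 4361 and 1064 and fell 4.69-fold (-2.23 ± 0.024), the largest fall on the list. MTHFD1 (-1.33), SHMT2 (-1.31) and SHMT1 (-1.06) fell as well. DTYMK had a low-dose log2 ratio above 0, at 0.18, whereas those of SHMT2 and MTHFD2 were -0.61 and -0.51.

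De novo purine synthesis had 4 of 12 genes past 2-fold at the high dose, all lower, beside the same 3.71% of all genes, with a median log2 ratio of -0.87, and all 12 ratios were below 0. These were PRPS2 (-1.34 ± 0.31, with a high-dose signal of only 26.54), which makes phosphoribosyl pyrophosphate, and the pathway enzymes PAICS (-1.16 ± 0.069), PFAS (-1.09 ± 0.19) and ADSL (-1.02 ± 0.072). PAICS, for example, had signals of 9093, 7646 and 3427. IMPDH1, which acts on the branch to guanylate, was the highest at -0.11. PRPS2 was also 2.43-fold higher under the low than under the high dose, the only one of the 12 past 2-fold in that comparison.

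De novo pyrimidine synthesis had none of 6 genes past 2-fold over control, with a high-dose median of -0.54. Of all genes measured, 3.71% were more than 2-fold lower and 6.84% higher at the high dose. At the low dose 1.61% were lower and 3.38% higher, so a count of none in a short list says little. The high-dose values of the 6 genes ran from -0.90 for DHODH, the mitochondrial dihydroorotate dehydrogenase, to -0.024 for CMPK1. CTPS1 was 2.10-fold higher under the low than under the high dose (signals 2988, 3648 and 1402). By the brightest probe of each gene, none of the 15 measured genes of salvage, breakdown and uptake passed 2-fold over control, with a high-dose median of -0.11. HPRT1 was the lowest of them at the high dose (-0.96 ± 0.025, 10 spots) and CDA, the cytidine deaminase, the highest (0.71 ± 0.085). The dimmer of the SAMHD1 probes was higher than this, at 3.06-fold of control at the high dose (1.61 ± 0.22). Between doses HPRT1 was 2.14-fold and the nucleoside transporter SLC29A1 2.02-fold higher at the low dose. In that comparison 3.66% of all genes were more than 2-fold higher.

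None of the 7 nucleoside mono- and diphosphate kinases passed 2-fold in any comparison, and their high-dose ratios ran from -0.55 for NME1 to 0.48 for GUK1. Between 1.61% and 6.84% of all genes passed in any 1 direction of a comparison, so none of 7 says little. Of the 5 enzymes cleaning the nucleotide pool, NUDT1, which hydrolyzes oxidized purine triphosphates, passed downwards, beside 3.71% of all genes at the high dose. Its signals were 2878 in control, 4210 in low-dose and 768 in high-dose cells, a 3.15-fold fall at the high dose (-1.66 ± 0.076) with a low-dose level 1.40-fold of control. The group's highest high-dose ratio was that of DNPH1, at -0.067.

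**Figure D4:**
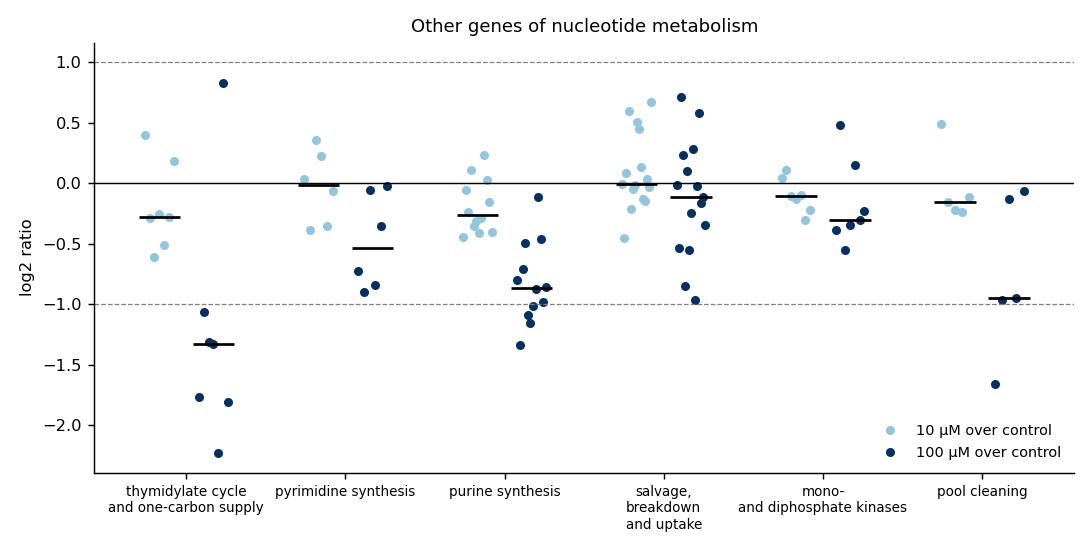
log2 ratios over control (vertical axis) of the 52 other nucleotide genes in 6 groups (horizontal axis), with 1 point per gene for 10 μM (light) and 100 μM (dark), a black line at each group's median and dashed lines at 2-fold. At 100 μM the thymidylate and one-carbon group has 6 of 7 points below -1, whereas no point passes 2-fold at 10 μM.

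The directions of the 9 genes over control held under each of the 7 scalings between arrays. At the high dose, RRM1 ran from -2.16 to -1.81 on the log2 scale, RRM2 from -2.03 to -1.68, TK1 from -2.07 to -1.72 and DUT from -1.47 to -1.12. RRM2B ran from 0.65 to 0.997 and stayed under 2-fold, and TYMS ran from -0.86 to -0.51. TK2 came as close to 0 as 0.037. At the low dose RRM1 stayed between 0.88 and 0.96 and TK1 between 0.87 and 0.95, under 2-fold in each scaling, and RRM2 between 1.11 and 1.20, above it.

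**Figure D5:**
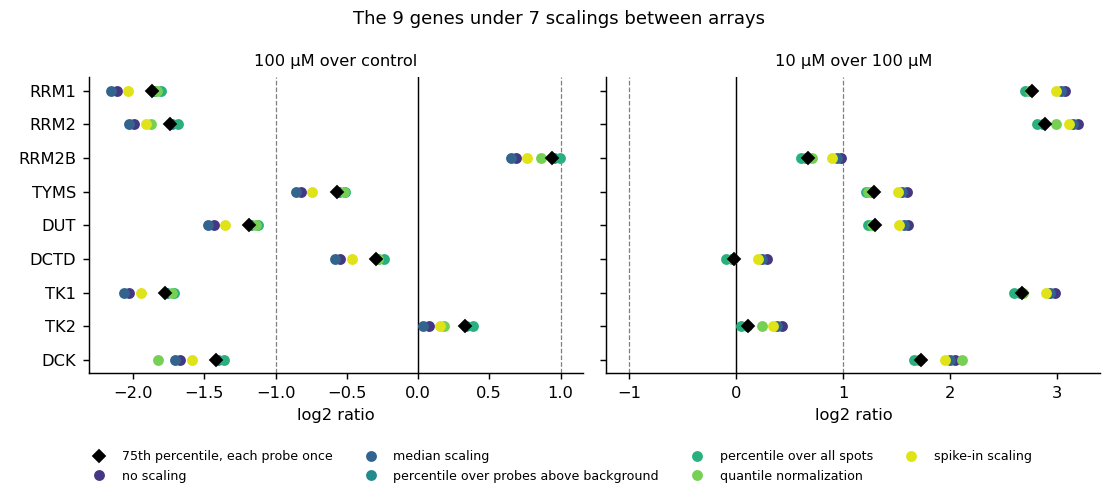
log2 ratios of the 9 genes (rows) under 7 scalings between arrays (symbols) for 100 μM over control and for 10 μM over 100 μM, with dashed lines at 2-fold and a solid line at 0. The symbols of 1 gene spread by less than 0.5, and DCTD is the gene whose symbols lie on both sides of 0, in the comparison of doses.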

How the data were processed

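Cy3-labeled RNA of HepG2 cells was measured on 1-color Agilent arrays, 1 per condition, and groups were taken from the dose in the labels. For each array the authors deposited the scanner output of Agilent Feature Extraction 10.7.3.1, whose processed intensity is background-subtracted and detrended within the array. The series table held the same intensity for all 44495 spots and was not scaled between arrays.

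From the deposited intensity, log2 values were averaged over the spots of a probe, without outlier spots, and set relative to the array's 75th percentile over all non-control probes, each counted once. This choice shifts every ratio alike. The brightest probe stood for its gene. Ratios were kept where the brighter condition was well above background, and the dimmer signal was raised to at least the lowest such signal on its array (19.51, 22.65 and 21.65 in control, low-dose and high-dose cells). The spot-to-spot SD came from the 50 repeated probes nearest in signal, among 999 spotted 10 times. The number of arrays limits the precision, and no test between conditions was made. Named were all 9 genes, ENOSF1, list genes past 2-fold or at either end at the high dose, and the 3 genes nearest to RRM2 and to RRM2B. Some genes that this rule selects are not reported here. The genes and lists were chosen with earlier results of these data known.

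Gene names are those of the array, with NP, CTPS and C6orf108 given as PNP, CTPS1 and DNPH1 after RefSeq. Positions of probes are on hg18, as in the files. No genome or annotation of that build was used here, so exon or UTR positions of the other probes are not given. The steps were tested on simulated data, made from the control array and its spot noise. The planted changes were well past 2-fold, so the simulation does not show how true changes near 2-fold are called. Alternatives were other scalings, normexp with an offset of 50 (limma 3.58.1, R 4.3.3), other treatments of dim, outlier and multiple probes, the series table, and thresholds of 1.5-fold and 3-fold. Python 3.11.15, pandas 2.3.3, numpy 2.4.6 and matplotlib 3.10.9 were used.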

Additional observations from a re-analysis of the deposited data

How the results depend on the processing

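No paired analysis was possible because there is only 1 array for each dose. Of 321 values of the 9 genes under the 12 alternatives that leave the threshold as it is, 253 stayed within 1 spot-to-spot SD, 64 moved by more and 4 changed sign. Those 4 were the low-over-high log2 ratio of DCTD, at 0.29 without scaling, 0.25 with median scaling and 0.20 with spike-in scaling, and that of TK2, at -0.037 with normexp. Of 204 counts and medians of the lists, 168 stayed within 1.5 times the count or 1 spot-to-spot SD of the median and 36 moved further. Part of both tallies was fixed in advance. The series table held the same intensities. Changes to the treatment of dim signals could not alter genes well above background on every array. The mean of all probes could not alter genes with 1 probe. The values that stayed are therefore no measure of robustness. Without scaling, with median scaling and with spike-in scaling, the median of all genes shifted by -0.25, -0.29 and -0.17 at the high dose over control and by 0.31, 0.27 and 0.23 for the low over the high dose. The median of the 9 genes became -1.43, -1.47 and -1.36 in the former comparison and 1.61, 1.57 and 1.52 in the latter, and 21, 22 and 20 of the 52 other genes were more than 2-fold lower at the high dose. Without scaling 18, and with median scaling 16, were more than 2-fold higher under the low than under the high dose. The count of 1 gene lower there became 0 with no scaling, median, quantile or spike-in scaling, normexp, or outlier spots kept, and 2 genes with the mean of all probes, which also put 1 gene more than 2-fold higher at the high dose over control. Normexp left 1 of the 9 genes past 2-fold upwards at the low dose, since RRM2 fell just short, and a high-dose median of -0.66. With only probes above background on all arrays, DCK dropped out and the medians were 0.80 and -0.88 over control. At 1.5-fold, 5 of the 9 genes were higher at the low dose and 1 under the high dose over control, and of the other genes 2 were higher and 1 lower at the low dose, 2 higher and 23 lower at the high dose, and 22 higher and 3 lower for the low over the high dose. At 3-fold, 1 of the 9 was higher at the low dose and 3 lower under the high dose, and of the other genes 4 were lower at the high dose, and 4 higher and 0 lower for the low over the high dose. The cause of these shifts was not tested. Shares of all genes past a threshold were counted only at 2-fold with the processing used above. The other counts in this paragraph therefore have no such share beside them. Dim signals, such as that of DCK at the high dose, limit the ratios.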

Other observations

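SAMHD1, which degrades deoxynucleoside triphosphates, is a further gene of these pools whose probes gave different readings. Its brighter probe had signals of 128.5 in control, 121.1 in low-dose and 161.5 in high-dose cells, and log2 ratios of -0.15 ± 0.15 and 0.58 ± 0.15 over control. Its dimmer probe had signals of 48.7, 29.57 and 125.2 in the same order, with log2 ratios of -0.78 ± 0.38 and 1.61 ± 0.22, so by this probe SAMHD1 was 3.06-fold higher than control at the high dose and 5.25-fold higher there than at the low dose. Both probes put the high dose highest. GART, an enzyme of purine synthesis, gave -0.49 ± 0.071 at its brighter probe and -1.07 ± 0.083 at its dimmer one at the high dose over control, on either side of 2-fold. SAMHD1 and GART were chosen for this comparison of probes after their values were seen.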
